A study of Bos taurus with 2 samples.

Results

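PLCXD1, LOC100298830 and LOC132342097 are the first 3 protein-coding genes met from the tip of the short arm of the cattle Y chromosome, and their CpG methylation was described here in lung DNA. The CpGs were chosen by position alone, as all those inside the 3 genes or within 1 kb of them, which gave 3090 CpGs out of 975164 on the whole chromosome. All 3090 had at least 10 PacBio reads and were used. PLCXD1 and its flanks held 676 of them, LOC100298830 held 527 and LOC132342097 held 1887.

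Cattle lung DNA was sequenced on PacBio (HiFi reads) and on Oxford Nanopore Technologies (ONT), long-read methods that both read 5-methylcytosine from native DNA. The labels name the tissue and the platform, and no treatment, age or breed. In the study the cattle Y chromosome comes from a single fetal F1 of a Wagyu sire and a Charolais dam. Each platform has 1 library, so no test between samples can be made, and every SD below is a spread over CpGs of 1 library.

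The genes lie in the pseudoautosomal region (PAR), the stretch in which the X and Y chromosomes pair and exchange DNA in male meiosis, so a male carries each gene on both sex chromosomes. In mammals, CpGs are methylated over most of the genome, while CpG islands, dense in CpGs and often placed over the starts of widely used genes, usually stay unmethylated. CpG-dense sequence inside gene bodies and near gene ends can be methylated. PLCXD1 encodes a protein with the catalytic X domain of the phosphatidylinositol-specific phospholipases C. The study's annotation names LOC100298830 as GTPBP6, a GTP-binding protein of mitochondrial ribosome assembly, and LOC132342097 as PPP2R3B, a regulatory subunit of protein phosphatase 2A.

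In the coordinates of ARS-UCD2.0, chromosome Y, PLCXD1 spans 34576 to 50731 (16156 bp, plus strand, 4 transcripts). LOC100298830 spans 54425 to 62973 (8549 bp, minus strand, 1 transcript). LOC132342097 is the longest at 40972 bp, from 67594 to 108565, on the minus strand with 3 transcripts. PLCXD1 and LOC100298830 therefore meet end to end, 3694 bp apart, and the start of LOC100298830 lies 4621 bp from the end of LOC132342097. The start of LOC132342097 faces that of LOC132344458, a lncRNA on the plus strand (108635 to 112866), across 70 bp. Exon and intron positions were not used here, so a position inside a gene is given as its distance from the gene start.

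PacBio depth over the members had a median of 71 reads per CpG, with a range from 40 to 88. The median was 78 over the outer 6.8 Mb of the chromosome, which holds the PAR, and 37 beyond it. Depth was 81 over PLCXD1, 84 over LOC100298830 and 68 over LOC132342097. The levels below may thus mix reads of the X and Y copies, and of different lung cell types, and the part of each was not tested. ONT depth is unknown. The positions in the files were tied to the assembly by a stated constant, and at that placement the CpGs within 500 bp of the 3 gene starts were denser (86.3 per kb, mean PacBio level 3.69%) than at any other shift tried, in steps of 100 bp up to 25 kb to either side, against 28.0 per kb and 79.5% with no correction of the ONT positions.

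All 3 genes were low in methylation at the start and high at the end, on both platforms. Over the 1 kb on each side of the start, the PacBio level averaged 24.4% ± 27 (SD over 57 CpGs) in PLCXD1, 6.93% ± 15.1 (166 CpGs) in LOC100298830 and 3.54% ± 3.37 (189 CpGs) in LOC132342097. Over the 1 kb on each side of the end it averaged 89.0% ± 14.1 (73 CpGs), 92.7% ± 5.14 (71 CpGs) and 93.0% ± 5.34 (139 CpGs) in the same order. Over 500 bp on each side, the start levels were 11.5%, 3.03% and 2.98% on PacBio and 14.97%, 1.72% and 1.98% on ONT. Leaving out CpGs with an ONT row at 0 raised the start of LOC100298830 to 12.7% on PacBio and 10.1% on ONT. ONT gave 21.0%, 4.56% and 2.42% at the starts and 77.4%, 80.4% and 83.5% at the ends over 1 kb on each side. Start minus end was thus −64.6 percentage points in PLCXD1, −85.8 in LOC100298830 and −89.5 in LOC132342097 on PacBio, and −56.4, −75.8 and −81.1 on ONT. No CpG of any end window was under 20% on PacBio, whereas 61.4%, 92.8% and 99.5% of the CpGs in the start windows were. On ONT 2 CpGs (2.74%) of the PLCXD1 end window were under 20%, and none of the other end windows. In the start windows the ONT shares were 59.6%, 94.0% and 100%.

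**Figure D1:**
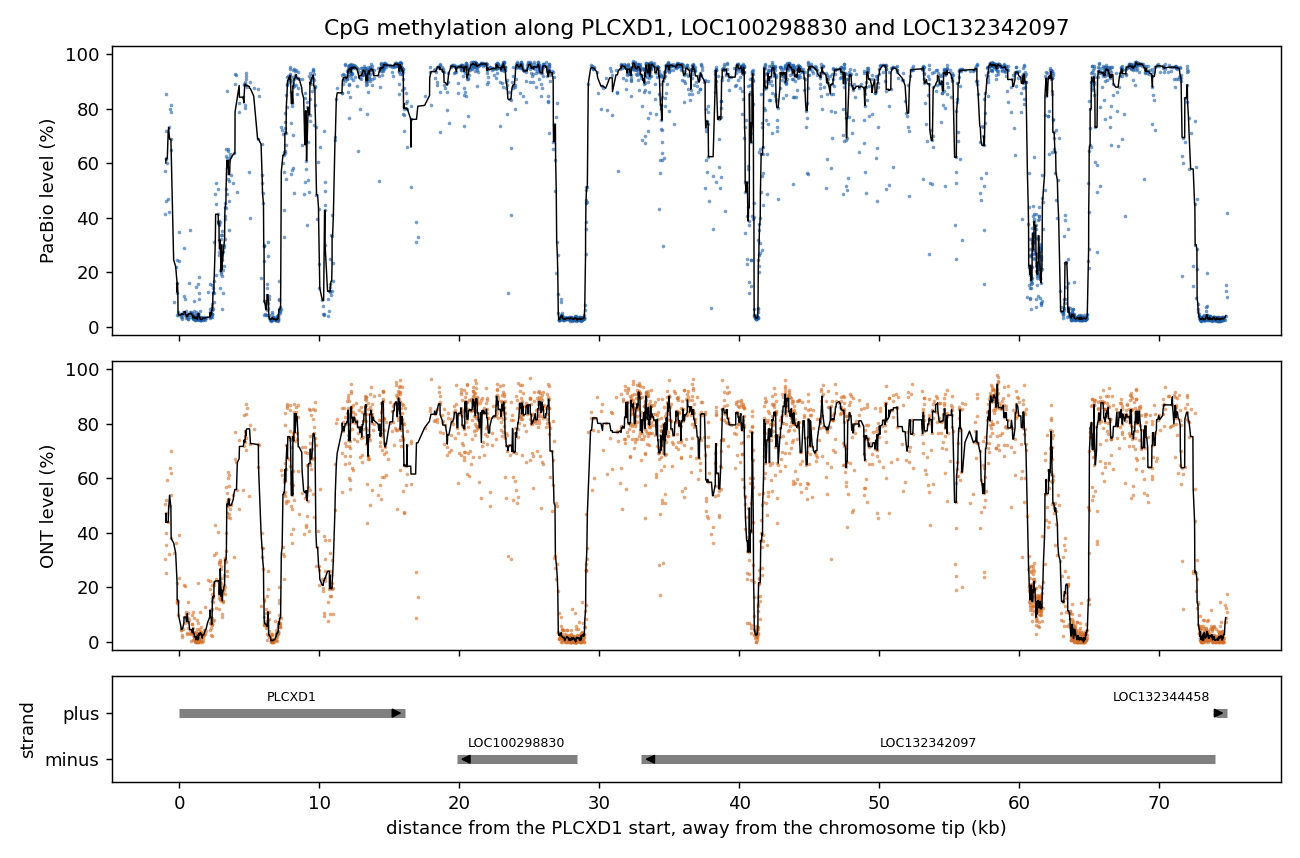
Methylation level in percent of each CpG from PacBio (upper panel) and ONT (middle panel) against distance from the PLCXD1 start in kb. The lower panel shows the genes with arrows in their direction of transcription, and the black line is a running median over 9 CpGs. The line falls to near 0 over each of the 3 gene starts and at 2 long stretches inside PLCXD1 and LOC132342097, and lies above 80% on PacBio at the last bases of each gene, with a shallow dip just past the end of PLCXD1. LOC132344458 runs on past the plotted range.

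Gene bodies lay between the ends and differed among the genes. The body of PLCXD1 averaged 52.7% ± 38.1 on PacBio (546 CpGs, quartiles 7.25% and 91.5%) and 44.2% on ONT. LOC100298830 had the most methylated body, at 84.4% ± 26.8 (290 CpGs, median 95.1%) on PacBio and 73.3% on ONT. LOC132342097 averaged 69.5% ± 34.3 (1559 CpGs, median 90.2%) and 59.6%. The wide quartiles of PLCXD1 show that its body holds both nearly unmethylated and nearly fully methylated stretches. The DNA between the genes was near the level of their ends, at 91.5% (21 CpGs) between PLCXD1 and LOC100298830 and 91.0% (38 CpGs) between LOC100298830 and LOC132342097 on PacBio.

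**Figure D2:**
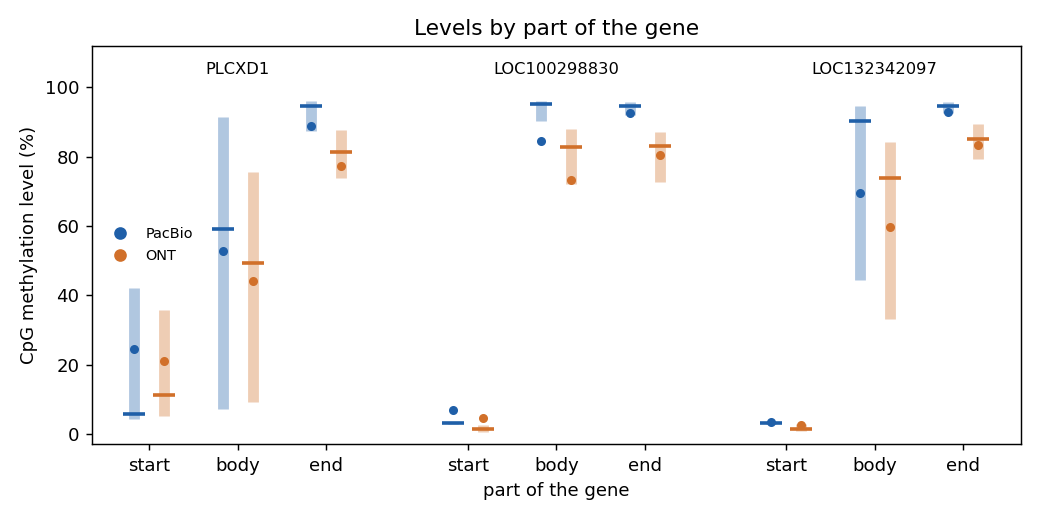
Methylation level in percent of the start window, body and end window of each gene on PacBio and ONT, with dots for means, dashes for medians and bars from the lower to the upper quartile over CpGs. Starts are low, ends are high, and only the bodies of PLCXD1 and LOC132342097 and the start of PLCXD1 spread widely.

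Unmethylated CpGs were more frequent in the members than elsewhere. On PacBio 850 of the 3090 CpGs (27.5%) were under 20%, against 7.85% in the outer 6.8 Mb and 8.53% on the whole chromosome. On ONT 920 (29.8%) were, against 8.39% and 9.91%. With CpGs that hold an ONT row at 0 left out, the counts were 455 on PacBio and 525 on ONT. Rows at 0 were 29.2% of the rows at members' CpGs under 20% on PacBio and 0% of those above 80%. The exclusion thus removed mainly low CpGs, and its counts cannot be set against the shares elsewhere, which were not recomputed. With all CpGs kept, both platforms placed the same 814 under 20%. A further 530 CpGs (17.2%) lay from 20% to 80% on PacBio and 1710 (55.3%) above 80%, against 29.3% and 62.8% in the outer 6.8 Mb and 46.8% and 44.6% on the chromosome. On ONT 1119 (36.2%) lay between and 1051 (34.0%) above 80%. The ONT shares were 58.3% and 33.3% in the outer 6.8 Mb, and 75.7% and 14.4% on the chromosome. LOC100298830 had the fewest CpGs between the extremes, 27 of 527 (5.12%), and PLCXD1 had 165 of 676 (24.4%). These shares are descriptions of single libraries, and neighbouring CpGs share reads.

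The start of PLCXD1 differed from the others in being low mainly on its inner side. The 1 kb before the start averaged 45.3% ± 27 (26 CpGs) on PacBio and 37.6% on ONT, whereas the first 1 kb inside the gene averaged 6.8% ± 7.35 (31 CpGs) and 7.02%. Its start window was also the least CpG-rich, at 28.5 CpGs per kb, with a median depth of 73 reads. The CpG nearest the start, 35 bp before it at 34541, was at 24.1% on PacBio, where 17 of 73 reads were counted as methylated (95% Wilson interval 15.1% to 34.2%), and at 23.5% on ONT. Averages over bins of 250 bp fell from 69.8% (7 CpGs, −750 to −501 bp from the start) to 16.5% (9 CpGs) in the last bin before the start and 3.90% (5 CpGs) in the first bin of the gene. Over the first 5 kb inside, the lowest bin lay at 1500 to 1749 bp, with 2.95% over 14 CpGs.

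LOC100298830 was unmethylated on both sides of its start. The 1 kb before it averaged 11.7% ± 21.7 (74 CpGs) with a median of 3.10%, and the first 1 kb inside was the most even stretch of the members' starts at 3.07% ± 0.329 (92 CpGs). ONT gave 8.39% and 1.48%. The small PacBio SD inside the gene lies near the bottom of the PacBio scale. The lowest PacBio level was 2.0% in the members and 1.7% on the chromosome. Whether the evenness is one of the DNA or of the score was not tested. The window held 83.0 CpGs per kb at a median depth of 84 reads. The CpG at the first base of the gene, 62973, was at 2.80% on PacBio (2 of 83 reads, Wilson interval 0.663% to 8.37%) and at 1.36% on ONT. Methylation rose steeply further out, from 2.97% over the 28 CpGs at −500 to −251 bp from the start to 83.0% over the 4 CpGs at −1000 to −751 bp.

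Over 1 kb on each side, LOC132342097 had the densest and least methylated start, with 94.5 CpGs per kb and 188 of 189 CpGs under 20% on PacBio. The side before the start averaged 3.78% ± 4.76 and the side inside it 3.36% ± 1.78. ONT gave 2.47% and 2.38%. The first 1 kb inside the gene was lower in LOC100298830, at 3.07% on PacBio and 1.48% on ONT. At the CpG 2 bp inside the start (108563), 1 of 61 PacBio reads was counted as methylated, with a level of 3.0% and an interval of 0.290% to 8.72%, and ONT listed 0. Depth was lower here than in the other starts, with a median of 61 reads. LOC132344458 shares this low stretch, since its own start window averaged 4.06% on PacBio and 2.90% on ONT over 179 CpGs, most of them also in the window of LOC132342097. The rest of the lncRNA averaged 85.4% and 74.3%.

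**Figure D3:**
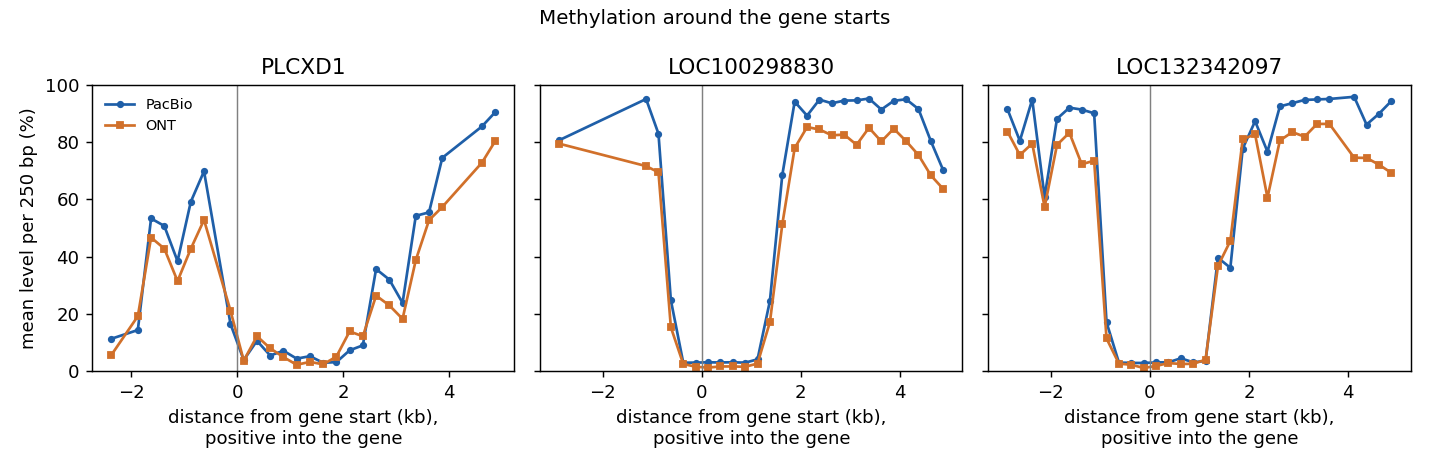
Mean methylation level in percent over bins of 250 bp, for each gene on PacBio and ONT. The horizontal axis is the distance from the gene start in kb, negative before the start. LOC100298830 and LOC132342097 are low on both sides of 0, while PLCXD1 averages at most 10.6% on PacBio in the bins from 0 to 2499 bp, rises to 90.5% at 4750 to 4999 bp, and is between 38.4% and 69.8% on PacBio at −1250 to −501 bp.

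Low-methylation runs, called where a running median over 9 CpGs stayed under 20% for at least 10 CpGs, numbered 8 on PacBio and covered 10213 bp, or 14.2% of the 71677 bp of members. The same rule covered 2.24% of the outer 6.8 Mb. ONT gave 11 runs over 11096 bp (15.5%, against 2.42%). The platforms shared 9780 bp, which is 95.8% of the PacBio length and 88.1% of the ONT length. PLCXD1 had 22.8% of its span in PacBio runs, LOC100298830 had 18.3% and LOC132342097 had 9.66%.

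Each gene start lay in 1 of these runs. The run of PLCXD1 was the longest, 2659 bp from 34434 to 37092, and lay almost wholly inside the gene, at −142 to 2516 bp from the start. It held 135 CpGs at 6.51% ± 6.31 on PacBio and 6.97% on ONT. The run of LOC100298830 covered 1928 bp from 61622 to 63549 (180 CpGs, 3.40% and 2.03%), at −576 to 1351 bp from the start. The run of LOC132342097 covered 2154 bp from 107277 to 109430 (211 CpGs, 3.48% and 2.64%), at −865 to 1288 bp from the start. The edges of the latter were sharp, since the running median passed 80% on PacBio within 684 bp on the gene side and 158 bp on the other. For LOC100298830 the distances were 330 bp and 249 bp. For PLCXD1 they were 1584 bp inside the gene and 5744 bp towards the tip, and the running median reached that level on the tip side at 28690.

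Low runs inside the genes and away from the starts numbered 5 on PacBio. LOC132342097 held the largest in CpGs, 159 CpGs over 1413 bp from 98023 to 99435, at 3.91% ± 3.48 on PacBio and 3.18% on ONT, 9130 to 10542 bp into the gene. A short run beside it, at 97506 to 97813, held 14 CpGs at 8.67% and 16.7%. A further one at 75643 to 75920 held 25 CpGs at 3.96% and 4.17%. PLCXD1 held 68 CpGs over 1175 bp from 40652 to 41826 at 5.90% ± 5.22 and 5.37%. Its other inner run, 45179 to 45476, held 12 CpGs at 14.5% on PacBio and 21.4% on ONT, and was not called on ONT. LOC100298830 had no run besides that at its start on either platform.

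ONT called low runs at some sites where PacBio called none. In LOC132342097 3 ONT runs lay close together from 95302 to 96230, 12335 to 13263 bp into the gene, and none was called on PacBio. Over these 929 bp the 108 CpGs averaged 25.9% ± 10.3 on PacBio, with a range from 6.70% to 62.2%, and 15.8% ± 5.7 on ONT, at a median depth of 69.5 reads. The 3 runs averaged 19.8%, 30.6% and 26.1% on PacBio in order of position. The 500 bp on either side averaged 72.7% and 75.1% on PacBio, so both platforms showed a dip and differed in its depth. In PLCXD1 14 CpGs from 37559 to 37761 averaged 24.8% on PacBio and 18.7% on ONT.

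CpG-dense stretches were called from CpG positions alone, as at least 25 CpGs within 500 bp. The members held 24. On PacBio 3 averaged under 20% (12.5%, against 11.4% of the 430 such stretches in the outer 6.8 Mb), 5 lay between and 16 (66.7%) averaged above 80%. ONT also placed 3 under 20%, against 11.6% in the outer 6.8 Mb, with 11 between and 10 (41.7%) above 80%. Above 80% were 52.0% of the 406 other stretches in the outer 6.8 Mb on PacBio and 22.9% on ONT. The count under 20% on PacBio depended on the density asked for, with 2 of 25 stretches at 20 CpGs in 500 bp and 6 of 21 at 30. With 25 CpGs, all 3 overlapped the start windows, and those of LOC100298830 and LOC132342097 also held the start itself. They ran from 35153 to 36456 in PLCXD1 (85 CpGs, 4.79% and 3.61%), from 61422 to 63798 over the start of LOC100298830 (196 CpGs, 7.21% and 4.56%) and from 107097 to 109440 over that of LOC132342097 (219 CpGs, 4.86% and 3.83%). The stretch of PLCXD1 did not reach the start and began 577 bp inside the gene. The latter 2 were also the densest of all, at 8.25 and 9.34 CpGs per 100 bp.

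CpG-dense stretches also lay at the 3 gene ends and were methylated. They were less dense than the stretches at the starts, slightly so in PLCXD1. The stretch at the end of PLCXD1, 49778 to 50880, had 6.07 CpGs per 100 bp against 6.52 in the stretch near its start, and averaged 92.3% ± 6.64 on PacBio and 80.5% on ONT. At the end of LOC100298830, 54484 to 56222, 100 CpGs at 5.75 per 100 bp, against 8.25 at its start, averaged 94.5% ± 3.82 and 82.3%. At the end of LOC132342097, 66375 to 69870, 224 CpGs at 6.41 per 100 bp, against 9.34 at its start, averaged 91.2% ± 9.10 and 80.3%. The CpGs nearest the 3 ends gave 81.9% (72 of 87 reads, Wilson interval 73.5% to 89.3%), 95.4% (80 of 83 reads, 89.9% to 98.8%) and 92.3% (66 of 71 reads, 84.6% to 97.0%) on PacBio. ONT gave 57.4%, 78.6% and 74.5%, each below the PacBio interval.

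Among the other stretches the highest on PacBio lay in gene bodies, at 102189 to 103346 in LOC132342097 (95.5% ± 1.5 on PacBio, 79.97% on ONT), at 69946 to 70609 in the same gene (94.6% and 81.1%) and at 59806 to 60647 in LOC100298830 (94.3% and 82.0%). On ONT the highest of them was at 70863 to 71516 in LOC132342097 (83.5%). The lowest on PacBio differed in makeup. In PLCXD1 the stretch at 36611 to 38310 averaged 30.8% ± 20.9 on PacBio and 25.8% on ONT, and 54 of its 89 CpGs lay from 20% to 80% on PacBio and 1 above. The stretch at 40432 to 43005 (38.8% ± 36.7 and 31.6%) held 67 CpGs under 20% and 32 above 80% on PacBio. On ONT the stretch at 94843 to 97201 in LOC132342097 was lower than it, at 30.9%. In LOC132342097 the longest stretch of all, 97670 to 101172, averaged 30.9% ± 38.9 and 27.5%, with 169 of 262 CpGs under 20% and 66 above 80% on PacBio. Over the 75 tiles of 1 kb along the locus, the CpG count per tile and the mean level had a Pearson correlation of −0.50 on PacBio and −0.51 on ONT, tiles of 1 library that share reads. Of the 24 tiles with at least 50 CpGs, 7 averaged under 20% on PacBio and 10 above 80%.

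**Figure D4:**
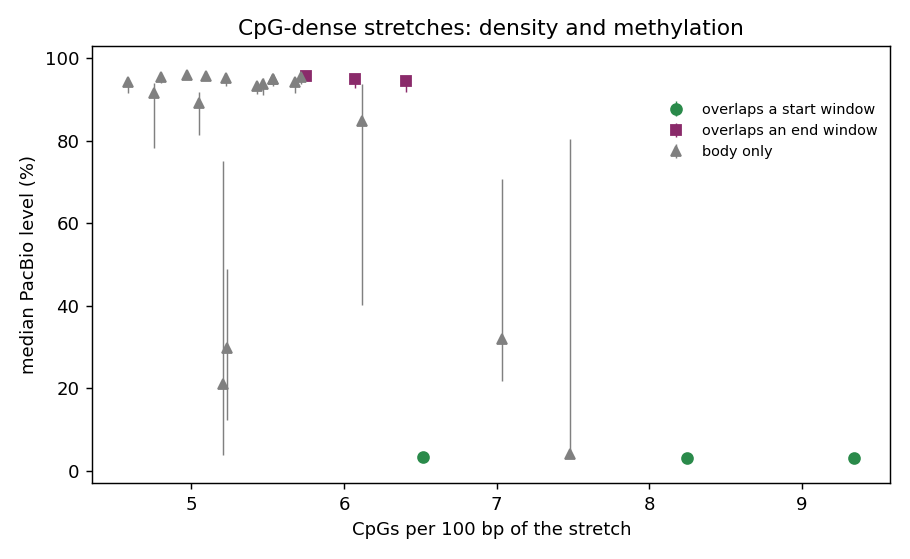
Median PacBio methylation level in percent of the 24 CpG-dense stretches against their CpGs per 100 bp. Bars run from the lower to the upper quartile over CpGs. Markers separate stretches that overlap a start window, overlap an end window or lie in a body only. The stretches over the starts of LOC100298830 and LOC132342097 and the first stretch inside PLCXD1 lie near 0, those at the 3 gene ends lie above 80%, and the widest bars belong to stretches inside PLCXD1 and LOC132342097.

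The starts were low among all ranked genes of the chromosome, but that of PLCXD1 was not low within the outer 6.8 Mb. Of 210 protein-coding genes with a strand and enough CpGs, PLCXD1 ranked 20, LOC100298830 ranked 11 and LOC132342097 ranked 4 from the lowest start level on PacBio, and 21, 12 and 6 on ONT. With windows of 500 bp the ranks were 12, 3 and 1 on PacBio and 13, 6 and 9 on ONT. The other 207 genes had a median start level of 68.8% on PacBio. In the study most protein-coding genes of this chromosome belong to families present in many copies, so the 207 include many such copies. Among the 12 in the outer 6.8 Mb the ranks were 9, 6 and 2 on PacBio and 9, 7 and 3 on ONT, since the 9 others had a median start level of 7.17% (range 3.48% to 79.1%). The ends of these 9 had a median of 72.0% (range 5.22% to 91.2%) on PacBio and 65.3% (range 2.42% to 84.2%) on ONT. The highest of them passed only the end of PLCXD1 on PacBio, and the ends of all 3 members on ONT. Counted from the lowest end level, PLCXD1, LOC100298830 and LOC132342097 ranked 8, 11 and 12 of the 12 on PacBio and 8, 9 and 11 on ONT. By start minus end, counted from the most negative, they ranked 7, 3 and 1 on PacBio and 7, 4 and 1 on ONT. The ranks are descriptions, since genes of 1 library are not replicates.

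The platforms kept the same order of gene parts and differed in scale. Over all members the mean was 61.8% on PacBio and 53.0% on ONT, and ONT was the lower at 85.9% of the CpGs. ONT minus PacBio was −0.0109 ± 4.77 points at the 850 CpGs under 20% on PacBio, −8.81 ± 14.1 at the 530 from 20% to 80% and −13.1 ± 9.32 at the 1710 above 80%. The same means in the rest of the outer 6.8 Mb were 0.777, −5.63 and −13.1. ONT rows listed at exactly 0 made up 8.04% of rows in the members and 1.88% on the chromosome. Within the members they were 29.2% of the rows at CpGs under 20% on PacBio and 0% of those at CpGs above 80%. Whether such a 0 is a measured level or a missing call was not tested.

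Differences of at least 25 points occurred at 263 of the 3090 CpGs (8.51%), near the 8.9% of the outer 6.8 Mb, and ONT was the lower at 252 of them. The 3 largest falls were at 106247 in LOC132342097 (60.1% on PacBio, 12.1% on ONT), at 50121 in PLCXD1 (95.9% and 48.8%) and at 96495 in LOC132342097 (91.4% and 44.6%). The 3 largest rises were at 58263 in LOC100298830 (41.1% and 88.1%), at 73561 in LOC132342097 (42.6% and 83.8%) and at 48835 in PLCXD1 (53.6% and 90.7%). At 58263, 34 of 82 PacBio reads were counted as methylated, a Wilson interval of 31.4% to 52.3% that leaves out the ONT level.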

How the data were processed

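PacBio and ONT methylation of lung DNA was analysed for 1 library each. Per the study's methods, the authors scored HiFi reads with Primrose, aligned them with pbmm2 and summarised CpGs with aligned_bam_to_cpg_scores. The deposited PacBio file holds, per CpG, a level in percent, the covering reads and the tool's estimated counts of reads with and without the mark. For ONT, the authors called bases with Dorado, aligned with Winnowmap and summarised with modbam2bed, leaving out calls between 20% and 80%. The deposited ONT file holds percent values, 1 row per strand, and no reads.

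PacBio positions were mirrored and ONT positions shifted by 20554 bp (counted from 0) onto ARS-UCD2.0. The PacBio level is the deposited percent value while both ONT rows of a CpG were averaged, for CpGs with at least 10 PacBio reads. Gene intervals came from the RefSeq gene table and strands from the study's annotation. Single CpGs carry 95% Wilson intervals from the estimated counts, which cover counting error only. CpG-dense stretches were windows of 500 bp with at least 25 CpGs, merged. Low runs needed at least 10 consecutive CpGs.

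Named were the 3 genes, LOC132344458, all low runs, and the 3 largest platform differences each way. Dense stretches were named at gene starts and ends, with the 3 lowest and 3 highest others by PacBio level. The PLCXD1 and LOC132342097 sites where only ONT called runs fall under the same rule. The genes and rules were chosen with earlier results of these data known. The promoter sequences planned for a check of the placement were not used here. Scripts ran under Python 3.11.15 with pandas 2.3.3, numpy 2.4.6, matplotlib 3.10.9 and scipy 1.17.1, and were tested on simulated data. Alternatives were other coverage minimums, level columns, ONT rows, windows, thresholds and weights.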

Additional observations from a re-analysis of the deposited data

How the results depend on the processing

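Of 128 alternatives for the principal values, 110 stayed within set limits. The limits were 1.5 times a count, 5 points for ONT contrasts and the platform difference, and the SD over CpGs for depth. For PacBio contrasts the limit combined the Wilson margins of the start and end levels at their median depth. Start minus end was negative in all 3 genes on both platforms under the 8 alternatives run for each, from −91.1 to −49.0 points. With the CpGs that hold an ONT row at 0 left out, the LOC100298830 start was at 12.7% on PacBio and 10.1% on ONT, its start minus end was −70.3 points on ONT, and CpGs under 20% numbered 455 on PacBio and 525 on ONT. With windows of 500 bp, the start level of PLCXD1 was 11.5% on PacBio and start minus end −77.8 points on PacBio and −63.5 on ONT, and the start ranks were 12 and 13 for PLCXD1, 3 and 6 for LOC100298830 and 1 and 9 for LOC132342097, on PacBio and ONT in turn. With at least 30 CpGs in 500 bp, 6 of 21 dense stretches averaged under 20%. With runs of at least 20 CpGs, ONT gave 7. With class limits of 10% and 90%, 205 CpGs were above the upper limit on ONT. Differences of at least 15 points occurred at 791 CpGs. In an alternative chosen after seeing the data, gene positions were moved by 500 bp. Towards the tip, the start level of PLCXD1 was 35.9% on PacBio, and start minus end was −49.0 points for PLCXD1 on ONT. Away from it, that level was 6.78%, and the difference was −79.2 on PacBio and −68.4 on ONT for PLCXD1, and −73.5 on ONT for LOC132342097, whose start level was 8.69% on PacBio, while that of LOC100298830 was 12.2%. Of 144 alternatives for the levels of single gene parts, 128 stayed within the Wilson margin at the median depth on PacBio or 5 points on ONT. A minimum of 4 or 20 reads left the members' values as they were, since the lowest depth was 40. Both minimums are counted in the 128 and the 144 alternatives, although they could not move the members' levels.

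No paired analysis was possible because each platform has 1 library. Variation between animals, tissues or libraries was not measured. ONT depth is unknown, so its single values carry no interval, and reads of the X and Y copies cannot be told apart.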

Other observations

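Between the first CpG in the files, at 20556, and the flank of PLCXD1 lay 2 further low runs on PacBio. The run at 29273 to 31230 (1958 bp, 56 CpGs) averaged 4.6% ± 5.13 on PacBio and 6.53% on ONT at a median depth of 66 reads. The run at 24637 to 27524 held 45 CpGs at 10.9% on PacBio and 35.3% on ONT, at a median depth of 913 reads, against 78 in the outer 6.8 Mb. All 49 CpGs from 24637 to 27642 had over 2 times that depth, with a maximum of 937 reads. Past the members, a run at 123459 to 123731 held 14 CpGs at 8.06% and 5.16%. LOC132344557, which the study's annotation names as a PLCXD1 pseudogene, lies near the other end of the chromosome at 59015230 to 59023731, and its 67 CpGs averaged 42.8% ± 27.7 on PacBio and 41.3% ± 17.8 on ONT at a median depth of 239 reads.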
